A study of Mus musculus with 20 samples.

Results

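The 10 genes described here encode precursors of neuropeptides made by sensory neurons: Cartpt, Tac1, Calca, Calcb, Sst, Gal, Adcyap1, Npy, Nppb and Nts. They were chosen by name, as sensory peptide precursors, and each symbol was found once among the 37620 genes of the expression table. RNA was sequenced from whole dorsal root ganglia (DRG) of C57Bl6 mouse embryos at E18.5, shortly before birth (C57Bl6 is an inbred strain), with no treatment or engineered allele named for any group. Each of 10 donor embryos gave 1 library from the lumbar L4-5 ganglia and 1 from the L6-S1 ganglia, called sacral here, so that each combination of level and sex had 5 libraries. Donors are named by the codes in the labels (M1, M3, M5, M7 and M8 for males, F3, F7, F8, F9 and F10 for females).

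A neuropeptide is cut from a larger precursor inside secretory granules, stored there, and released with or without a fast transmitter. In DRG the peptidergic sensory neurons, many of them nociceptors, carry calcitonin gene-related peptide (CGRP) and substance P, and release them both in the spinal cord and from their endings in skin and viscera. The L6-S1 ganglia of the mouse hold the neurons that innervate pelvic organs beside somatic neurons, whereas the L4-5 ganglia serve the hindlimb, and the comparison of levels asks which transcripts differ between them before birth. In whole ganglia, fewer cells of a type and less RNA per cell cannot be told apart.

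Values are RPKM as deposited, reads scaled to gene length and by library. The deposited log2 values had the same median (0.93) in each of the 20 libraries, so the scaling was not by library size alone. Differences are on the log2 scale as sacral minus lumbar, with the standard error (SE) of the fit. The ganglia carried their defining transcripts: the neuronal intermediate filament gene Prph averaged 205.2 RPKM over the 20 libraries, Tubb3 141.4, Avil 38.2, Pou4f1 22.9 and Isl1 17.5. Between 19606265 and 39678967 reads per library were assigned to genes, and the 2 mitochondrial ribosomal RNA (rRNA) genes took 17.8% to 61.1% of them, most in donors M5 and F7. Of the 14526 genes that reached a mean of 1 RPKM in at least 1 group, 977 passed an adjusted p of 0.05 between levels (6.73%), 391 of them higher (2.69%) and 586 lower (4.03%) in sacral DRG. With quantile normalization 51.6% of the calls were higher in sacral DRG, and with voom on reads recovered from the values 51.9%, in place of 40.0%. The median difference of all tested genes was -0.05. Of the members 8 reached that level, and Npy and Nppb did not.

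Of the 8 tested members 3 passed the test between levels. Cartpt was 8.94-fold higher in sacral DRG and Sst was 2.66-fold higher, whereas Tac1 was 1.75-fold lower. For Calca, Calcb, Gal, Adcyap1 and Nts the difference did not pass, and Npy and Nppb were near the limit of detection. Of the tested members 37.5% were called, where 6.73% of all tested genes were. The members were chosen with earlier results of these data known, so these shares are a description.

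**Figure D1:**
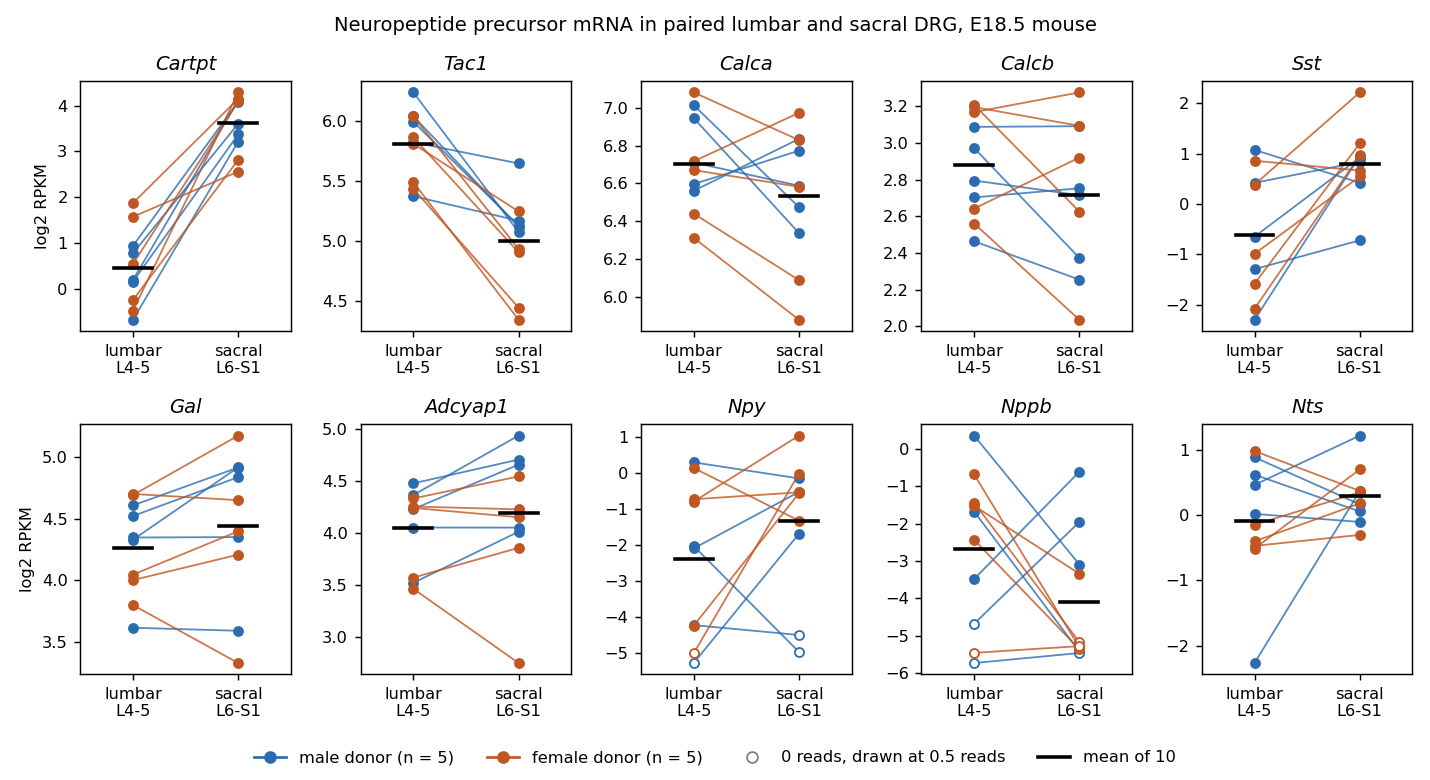
Expression of each precursor (y axis, log2 RPKM) in the lumbar and the sacral library of each of 10 donors (x axis), joined by a line per donor and coloured by sex, with black bars at the mean of 10. Every Cartpt line rises and every Tac1 line falls, while the open points of Npy and Nppb mark libraries with 0 reads.

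Cartpt (ENSMUSG00000021647, chromosome 13, 100668439 to 100670638 in mm9, minus strand) encodes the precursor of cocaine- and amphetamine-regulated transcript (CART) peptides, which are found in sensory, autonomic and brain neurons. In lumbar male DRG its level was 1.12 RPKM in M1, 1.15 in M3, 0.628 in M5, 1.92 in M7 and 1.72 in M8. In sacral male DRG it was 10.4 RPKM in M1, 17.3 in M3, 9.29 in M5, 17.0 in M7 and 12.2 in M8. The lowest sacral male library was thus well above the highest lumbar male one.

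In lumbar female DRG Cartpt was at 3.67 RPKM in F3, 0.847 in F7, 2.98 in F8, 0.721 in F9 and 1.46 in F10. In sacral female DRG it was at 17.7 RPKM in F3, 7.04 in F7, 5.90 in F8, 19.5 in F9 and 17.0 in F10. The lumbar values of F3 and F8 were the highest of the 10, and the sacral value of F8 was the lowest. The 10 lumbar values (0.628 to 3.67 RPKM) and the 10 sacral values (5.90 to 19.5) did not overlap, which held for 20 of the 14526 tested genes (0.138%).

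The fitted Cartpt difference was 3.16 (SE 0.27, 95% interval 2.61 to 3.71, adjusted p = 4.62e-07, limma), and all 10 donors rose. The donor differences averaged 3.40 ± 0.48 (SD, n = 5) in males and 2.92 ± 1.41 in females. They ran from 0.99 in F8 to 4.76 in F9, with the next smallest at 2.27 in F3. These values rested on 9 to 108 reads in lumbar and 136 to 603 reads in sacral libraries. Without donors M5 and F7, or without F8, Cartpt was still past the threshold.

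Sst, which encodes the precursor of somatostatin, an inhibitory peptide of a subset of small sensory neurons, was the other member called higher in sacral DRG. The promoters of Cartpt and Sst are shown because both genes were called higher in sacral DRG and because a cAMP response element, the DNA site of CREB family factors, is a well-known feature of the Sst promoter. The 250 bases before each gene start (RefSeq, GRCm38.p6, minus strand, 5′ to 3′) read as below, with the full palindromic element in capitals.
Cartpt, chr13:99900684-99900933: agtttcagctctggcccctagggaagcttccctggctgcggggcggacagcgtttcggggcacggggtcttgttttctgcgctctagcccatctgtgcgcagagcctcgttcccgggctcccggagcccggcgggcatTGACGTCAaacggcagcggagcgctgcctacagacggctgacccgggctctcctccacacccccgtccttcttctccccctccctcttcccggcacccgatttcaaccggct
Sst, chr16:23890845-23891094: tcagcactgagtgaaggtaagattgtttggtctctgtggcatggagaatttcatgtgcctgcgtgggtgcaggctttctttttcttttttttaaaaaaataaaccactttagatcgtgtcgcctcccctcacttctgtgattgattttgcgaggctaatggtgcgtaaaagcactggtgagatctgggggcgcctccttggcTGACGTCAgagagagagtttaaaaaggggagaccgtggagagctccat
The full element TGACGTCA began 112 bases before the Cartpt start and 48 bases before the Sst start. It occurred in the 250 bases before 1.55% of 32851 RefSeq gene starts and before no other start of the 9 members listed there. The shorter letters TGACG, searched on both strands and contained on each strand of the full element, occurred before 17.8% of the starts and in 6 of the 9 members (Adcyap1, Calca, Cartpt, Nts, Sst and Tac1). A match describes letters in the window and not a bound site.

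Sst (ENSMUSG00000004366, chromosome 16, 23889667 to 23890930 in mm9, minus strand) was expressed at a low level. In lumbar DRG it was at 0.204 RPKM at the lowest (M5), 0.572 at the median and 2.10 at the highest (M1). In sacral DRG it was at 0.607 RPKM at the lowest (M7), 1.84 at the median and 4.63 at the highest (F7). The ranges overlapped, since lumbar M1, M3, M8, F7 and F8 lay among the sacral values, and 8 of 10 donors rose while M1 and F8 fell.

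The Sst difference was 1.41 (SE 0.36, 95% interval 0.66 to 2.17, adjusted p = 0.0251, limma), from 2 to 64 reads per library. Donor differences averaged 1.03 ± 1.47 (SD, n = 5) in males and 1.80 ± 1.28 in females. The call was lost without M5 (difference 1.14, adjusted p = 0.0864), without M8 (adjusted p = 0.0549), F3 (0.0536), F7 (0.0523), F9 (0.0617) or F10 (0.0768), and without M5 and F7 together (difference 1.13, adjusted p = 0.148). It was also lost in the fit without the donor block (adjusted p = 0.117) and with no filter on low values (0.0644).

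Connective tissue transcripts moved in the same direction as Sst. Of 7 fibroblast markers tested, 4 were called higher in sacral DRG (Col1a1, Col1a2, Pdgfra and Fbln1) and none lower, with a median difference of 0.51. Their summed level was 194.4 to 447.2 RPKM in lumbar and 270.7 to 603.1 RPKM in sacral DRG, and none was at 0. The genes whose pattern was most like that of Sst over the 20 libraries were Cercam (Pearson r = 0.843, Spearman rho = 0.773) and Pdgfra (r = 0.842, rho = 0.735), a receptor widely expressed by fibroblasts. Their part in the Sst result was not tested.

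**Figure D2:**
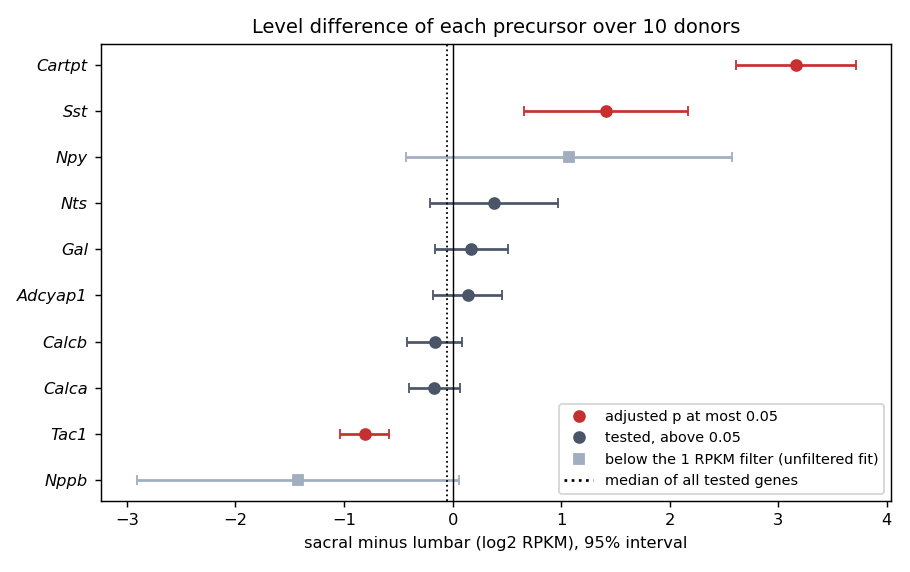
Fitted sacral minus lumbar difference of each precursor (x axis, log2 RPKM) with its 95% interval over 10 donors, ordered by size (y axis). The intervals of Cartpt (2.61 to 3.71) and Sst (0.66 to 2.17) lie above 0 and that of Tac1 (-1.04 to -0.58) below it, and squares mark the 2 genes under the 1 RPKM filter.

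Tac1 (ENSMUSG00000061762, chromosome 6, 7505071 to 7512973 in mm9, plus strand) encodes the precursor of the tachykinins substance P and neurokinin A. In lumbar male DRG it was at 75.5 RPKM in M1, 56.5 in M3, 63.7 in M5, 65.7 in M7 and 41.4 in M8. In sacral male DRG it was at 33.6 RPKM in M1, 50.04 in M3, 34.9 in M5, 34.7 in M7 and 35.9 in M8. Sacral M3 stood above the other 4 sacral male libraries, and donors M3 and M8 had the smallest falls.

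In lumbar female DRG Tac1 was at 58.2 RPKM in F3, 44.9 in F7, 43.2 in F8, 56.04 in F9 and 65.7 in F10. In sacral female DRG it was at 29.9 RPKM in F3, 20.3 in F7, 21.7 in F8, 37.9 in F9 and 30.5 in F10. The lumbar and sacral female values did not overlap, a property that was not counted over all tested genes. Over all 10 donors the levels overlapped, since sacral M3 lay within the lumbar range of 41.4 to 75.5 RPKM.

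The Tac1 difference was -0.81 (SE 0.11, 95% interval -1.04 to -0.58, adjusted p = 2.03e-04, limma), and all 10 donors fell, from -1.17 in M1 to -0.18 in M3. It averaged -0.67 ± 0.45 (SD, n = 5) in males and -0.95 ± 0.23 in females. A single direction in all 10 donors occurred in 2.85% of tested genes. The smallest library held 483 Tac1 reads. The call held without M5 and F7 and without each donor in turn.

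Several neuron and glia markers were lower in sacral DRG as well. Of 13 tested sensory neuron markers, Snap25, which acts in vesicle release, was called lower (-0.60 ± 0.14 SE, adjusted p = 0.0163, limma) and the other 12 were not called, with a list median of -0.32 and summed levels of 468.4 to 1079 RPKM in lumbar and 256.2 to 927.5 RPKM in sacral DRG. Of 12 nociceptor and C-fibre markers, Fam19a1 was called lower (-0.70 ± 0.14) and Trpv1, the capsaicin receptor, higher (0.70 ± 0.19), with a median of -0.31 and sums of 259.4 to 709.4 RPKM in lumbar and 131.8 to 641.7 RPKM in sacral DRG. Of 10 markers of large myelinated neurons, 5 were called lower (Pvalb, Nefh, Nefm, Etv1 and Cntnap2) and 1 higher (Calb1), with sums of 298.6 to 777.5 RPKM in lumbar and 154.7 to 375.4 RPKM in sacral DRG. Of 10 glia markers, 4 were called lower and none higher, with sums of 401.8 to 554.3 RPKM in lumbar and 260.2 to 421.9 RPKM in sacral DRG. No marker of these lists was at 0 in every library. Their part in the Tac1 result was not tested.

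Calca and Calcb encode the precursors of the α and β forms of CGRP, a vasodilator peptide and the classical marker of peptidergic nociceptors. They lie 82.3 kb apart on chromosome 7 of mm9, Calca (ENSMUSG00000030669) at 121774994 to 121779871 on the minus strand and Calcb (ENSMUSG00000030666) at 121862157 to 121866879 on the plus strand. Calca transcripts are also spliced to calcitonin, and the value per gene does not separate the spliced forms. The most alike stretch of the coding sequences of the CGRP form of Calca and of Calcb (GENCODE M1, mm9) is shown because the study counted only uniquely mapped reads. It covers coding bases 200 to 369 of Calca and 203 to 372 of Calcb, with the bases that differ in capitals.
Calca: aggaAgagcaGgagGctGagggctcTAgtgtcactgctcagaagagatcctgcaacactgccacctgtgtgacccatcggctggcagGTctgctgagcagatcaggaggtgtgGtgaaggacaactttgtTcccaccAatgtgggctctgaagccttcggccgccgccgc
Calcb: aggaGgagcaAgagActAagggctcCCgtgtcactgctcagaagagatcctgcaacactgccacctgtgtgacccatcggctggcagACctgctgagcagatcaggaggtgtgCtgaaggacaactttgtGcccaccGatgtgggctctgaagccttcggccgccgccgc
Of these 170 bases 11 differed (93.5% identical), and the longest run without a difference between the coding sequences was 60 bases. A read lying wholly in such a run could not be assigned to 1 of the genes alone.

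Calca was the most abundant member in every library. In lumbar DRG it was at 79.5 RPKM at the lowest, 103.3 at the median and 135.4 at the highest, and in sacral DRG at 58.9, 96.0 and 125.6 RPKM. The ranges overlapped nearly throughout, and 7 of 10 donors were lower in sacral DRG. The Calca difference was -0.17 (SE 0.11, 95% interval -0.40 to 0.07, adjusted p = 0.367, limma), so a fall of more than 1.32-fold lay outside the interval.

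Calcb was at 5.52, 7.40 and 9.24 RPKM (lowest, median and highest) in lumbar DRG and at 4.10, 6.66 and 9.69 RPKM in sacral DRG. Its difference was also -0.17 (SE 0.12, 95% interval -0.42 to 0.08, adjusted p = 0.403, limma), with 6 of 10 donors lower. The ratio of Calca to Calcb was 14.5 ± 3.53 (SD, n = 10) in lumbar and 14.4 ± 2.63 in sacral DRG, and its log2 change averaged -0.0029 ± 0.31 over the 10 donors.

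Because Tac1 and Calca are carried by overlapping sets of nociceptors, their ratio was taken within each library, a comparison chosen after the values were seen. The Tac1 to Calca ratio was 0.438 at the lowest, 0.533 at the median and 0.721 at the highest in lumbar DRG, and 0.268, 0.332 and 0.458 in sacral DRG. It fell in all 10 donors, by 0.64 ± 0.26 (SD) on the log2 scale (exact two-sided sign-flip test over 10 donors, p = 0.00195, the smallest this test can give, and 0.00781 after Benjamini-Hochberg adjustment over 4 ratios). Of the other 3 ratios, Calca to Calcb gave an adjusted p of 0.975, Adcyap1 to Calca 0.122 and Gal to Calca 0.0742 in the same exact tests. The log2 ratio of Gal to Calca was higher in sacral DRG in 7 of 10 donors, with a mean difference of 0.34 ± 0.41.

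Gal encodes galanin, a peptide of few adult sensory neurons that is induced by nerve injury and present in developing ganglia. In lumbar DRG it was at 12.3 RPKM at the lowest, 20.2 at the median and 26.03 at the highest, and in sacral DRG at 10.05, 23.1 and 36.1 RPKM. The Gal difference was 0.17 (SE 0.16, 95% interval -0.16 to 0.51, adjusted p = 0.533, limma), with 7 of 10 donors higher in sacral DRG. F7 was the only donor with a fall over 0.1, at -0.47.

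Adcyap1 encodes pituitary adenylate cyclase-activating peptide (PACAP). It was at 11.03 RPKM at the lowest, 18.8 at the median and 22.3 at the highest in lumbar DRG, and at 6.73, 18.3 and 30.6 RPKM in sacral DRG. The Adcyap1 difference was 0.14 (SE 0.15, 95% interval -0.18 to 0.45, adjusted p = 0.598, limma). In this gene too the sacral library of F7 was the lowest of all, and that donor fell by 0.71 on the log2 scale.

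Nts encodes the precursor of neurotensin, a brain and gut peptide, and was expressed at a low level. It was at 0.208 RPKM at the lowest, 0.956 at the median and 1.97 at the highest in lumbar DRG, and at 0.809, 1.20 and 2.32 RPKM in sacral DRG, from 4 to 96 reads. The Nts difference was 0.38 (SE 0.28, 95% interval -0.21 to 0.97, adjusted p = 0.415, limma). It rested largely on donors M5 and F7. The lumbar library of M5 held the lowest value, and the donor differences were 2.63 in M5 and 1.21 in F7. Without M5 the fitted difference was 0.10, and without M5 and F7 it was -0.0025.

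Npy encodes neuropeptide Y, which sympathetic neurons express strongly and sensory neurons mainly after nerve injury. Its reads ran from 0 to 26 in lumbar and from 0 to 27 in sacral libraries, with 3 lumbar and 2 sacral libraries at 0, where 0 reads allow up to 0.156 to 0.323 RPKM. Its difference of 1.07 ± 2.51 (SD, n = 10) was higher in 6 donors and lower in 4 (exact two-sided sign-flip test, p = 0.193, 1 of 2 such tests, unadjusted). At this depth no level difference of Npy was detected, and the limma fit without the filter gave a wide 95% interval (-0.43 to 2.57).

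Nppb encodes B-type natriuretic peptide, a heart peptide that is also a transmitter of sensory neurons for itch. In lumbar DRG it was read 0 to 30 times per library, with 3 libraries at 0 and 78 reads in all. In sacral DRG it was read 0 to 16 times, with 6 libraries at 0 and 26 reads in all. Its difference was -1.43 ± 2.76 (SD, n = 10), lower in 6 donors and higher in 4 (exact two-sided sign-flip test, p = 0.135, unadjusted), and 0 reads allow up to 0.113 to 0.234 RPKM. Log2 differences of Npy and Nppb depend on the 0.5 reads set for a blank.

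Levels between the genes were compared per length. In lumbar DRG the order by mean RPKM was Calca (105.7 ± 18.3, SD, n = 10), Tac1 (57.1 ± 11.2), Gal (19.9 ± 4.99), Adcyap1 (17.1 ± 4.14), Calcb (7.49 ± 1.43), Cartpt (1.62 ± 1.0), Nts (1.10 ± 0.56), Sst (0.889 ± 0.695), Npy (0.407 ± 0.463) and Nppb (0.321 ± 0.394). Calca was above Tac1, Tac1 above Gal, Adcyap1 above Calcb and Calcb above Cartpt in all 10 libraries. Gal was above Adcyap1 in 8 of 10, Cartpt above Nts in 7, Nts above Sst in 8, and Npy above Nppb in 3, and these neighbours lay within the spread of each other.

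In sacral DRG Cartpt, at 13.3 ± 4.97 RPKM (SD, n = 10), moved above Calcb, which it exceeded in 9 of 10 libraries. Calca (95.2 ± 21.4), Tac1 (32.9 ± 8.40), Gal (23.2 ± 8.37) and Adcyap1 (19.6 ± 6.89) kept their places. Tac1 was above Gal in 9 of 10 libraries, Gal above Adcyap1 in 7 and Adcyap1 above Cartpt in 8. Sst (1.95 ± 1.05) was above Nts (1.28 ± 0.43) in 8 of 10, in the reverse of their lumbar order.

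The 10 genes summed to 211.6 ± 30.0 RPKM (SD, n = 10) in lumbar and 195.1 ± 42.0 RPKM in sacral DRG. Calca made up 49.9% ± 3.90 of the sum in lumbar and 48.9% ± 4.22 in sacral libraries. Tac1 made up 26.9% ± 2.68 in lumbar and 16.9% ± 2.23 in sacral libraries, with its lowest lumbar share (21.9%) above its highest sacral share (20.6%). Cartpt made up 0.785% ± 0.515 in lumbar and 6.67% ± 1.53 in sacral libraries, again without overlap (1.73% at most against 4.23% at least). The plot of shares shows these moves in each library.

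**Figure D3:**
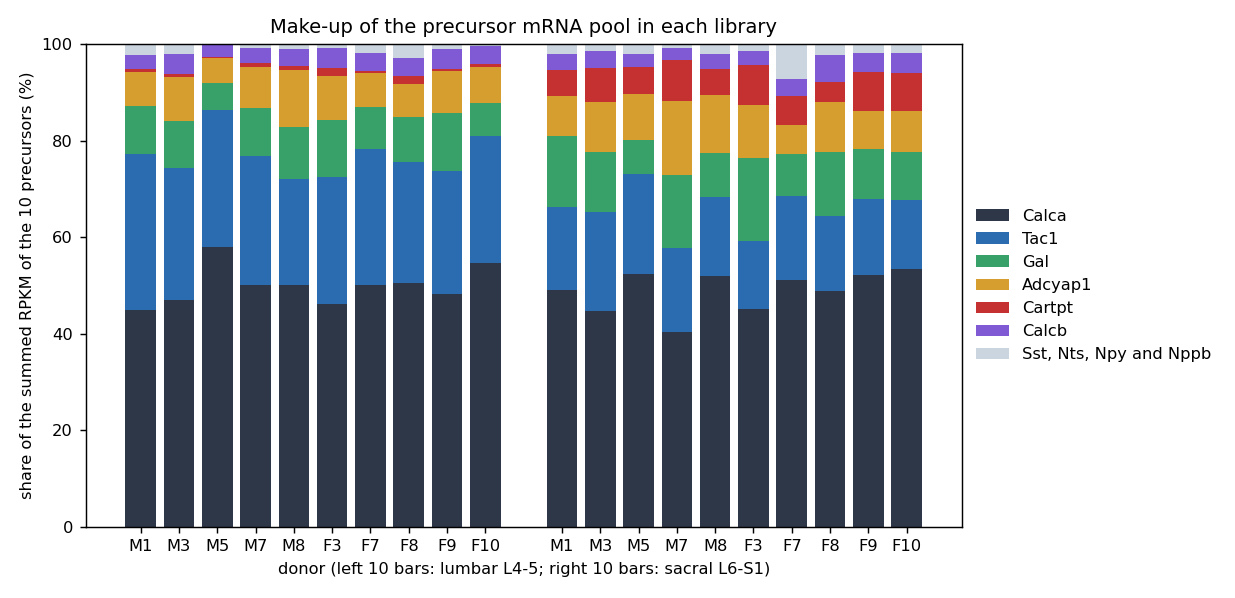
Share of each precursor in the summed RPKM of the 10 genes (y axis, percent) in each of the 10 lumbar and 10 sacral libraries, labelled by donor (x axis). Calca keeps about the same share at both levels, the Tac1 part shrinks from 26.9% to 16.9% on average and the Cartpt part grows from 0.785% to 6.67%.

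The study also asked whether ganglia differ between the sexes before birth. The numbers of the libraries in the sample titles form 1 run for males and another for females, so that sex and this numbering cannot be told apart. No tested member passed between females and males in lumbar DRG, where 48 of all tested genes did (0.33%), and none had an unadjusted p under 0.05. None passed in sacral DRG, where 147 of all did (1.01%), and 2 had an unadjusted p under 0.05. How many of all tested genes had such a p there was not counted, so these 2 are a description.

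Those 2 were Tac1 and Adcyap1, both lower in females. Tac1 was 20.3 to 37.9 RPKM in sacral female and 33.6 to 50.04 RPKM in sacral male libraries, a difference of -0.45 (SE 0.19, 95% interval -0.85 to -0.05, adjusted p = 0.268, limma). Adcyap1 was 6.73 to 23.3 RPKM in sacral female and 16.1 to 30.6 RPKM in sacral male libraries, a difference of -0.57 (SE 0.26, 95% interval -1.12 to -0.02, adjusted p = 0.310, limma). The values of the sexes overlapped for both genes.

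The level differences of the members were not shown to differ between the sexes. Across the 8 tested genes the female minus male interaction ran from -0.47 for Cartpt to 0.77 for Sst, with adjusted p from 0.995 (limma) and none under 0.05 before adjustment. Of all 14526 tested genes none passed (0%), and 470 had an unadjusted p under 0.05. In exact permutation tests of 5 against 5 libraries within each level, Npy gave p = 0.659 in lumbar and 0.111 in sacral DRG, and Nppb p = 0.563 and 0.214 (two-sided, 4 tests, unadjusted, where the smallest possible p is 0.00794).

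The members also differed in how they followed the share of mitochondrial rRNA in a library, which is a property of the library and not of the design. Over all tested genes 7643 had a slope on this share past the threshold (52.6%), a negative one in 36.3% of the tested genes. Of the 8 tested members 2 did, both negative. Gal fell by 0.33 (SE 0.06) on the log2 scale for each 10 percentage points of the share (adjusted p = 1.53e-04, limma), and Adcyap1 fell by 0.26 (SE 0.07, adjusted p = 0.00258).

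In the 4 libraries of M5 and F7, where the share was 44.7% or more, Gal was at 10.05 to 13.9 RPKM. In the 16 libraries of the other donors, where the share was at most 43.2%, it was at 16.03 to 36.1 RPKM, so that the values did not overlap. Adcyap1 was at 6.73 to 16.1 RPKM in the former and 11.9 to 30.6 RPKM in the latter, with overlap. How many of all tested genes separated these libraries as Gal did was not counted, and M5 and F7 were the donors of highest share. The most abundant members showed slopes near 0: -0.01 (SE 0.06, 95% interval -0.14 to 0.11) for Calca and -0.03 (SE 0.06, 95% interval -0.15 to 0.09) for Tac1. The share was higher in the sacral library of 3 of 10 donors, and with it as a covariate Cartpt, Sst and Tac1 passed the threshold as without it.

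**Figure D4:**
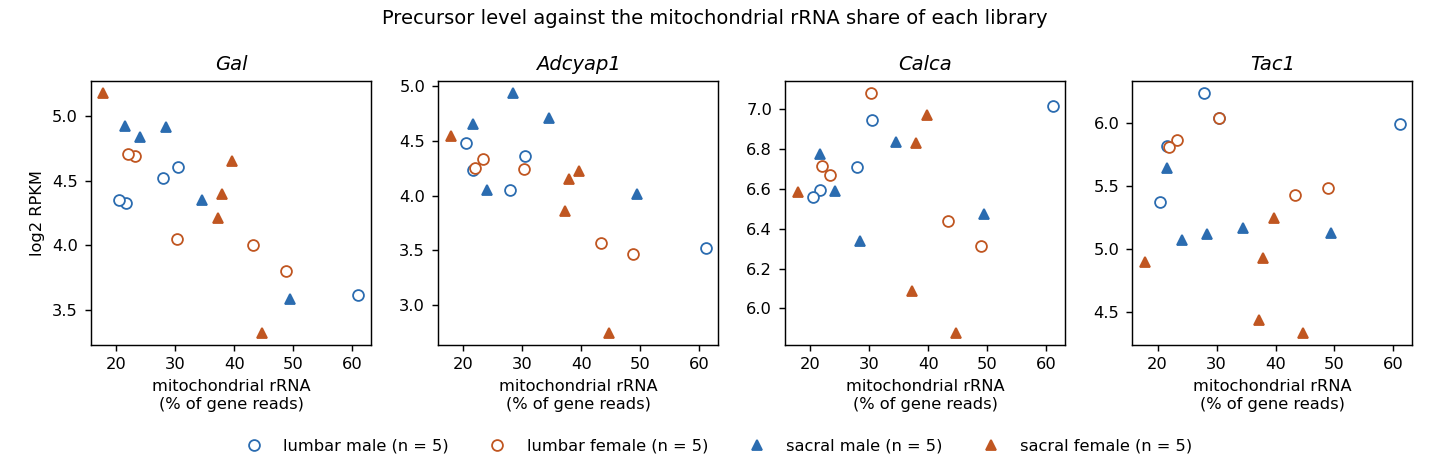
Expression (y axis, log2 RPKM) of Gal, Adcyap1, Calca and Tac1 against the percentage of gene reads from the 2 mitochondrial rRNA genes (x axis) in 20 libraries, with open circles for lumbar, filled triangles for sacral and colour for sex. Gal and Adcyap1 are lower at high shares (slopes of -0.33 and -0.26 per 10 percentage points), while Calca and Tac1 show no slope past the threshold.

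Of 48 other neuropeptide precursors listed, 47 were in the table under the symbols used and 7 were tested. Of these 7, 2 were called between levels, where 6.73% of all tested genes were. Penk, the precursor of the opioid enkephalins, was 2.11-fold higher in sacral DRG (1.08 ± 0.11 SE, adjusted p = 7.55e-06, limma), at 5.03 to 12.3 RPKM in lumbar and 12.02 to 19.2 RPKM in sacral libraries, and rose in 10 of 10 donors. Nmb, the precursor of the itch peptide neuromedin B, was 1.72-fold lower (-0.78 ± 0.12 SE, adjusted p = 4.82e-04, limma) and fell in 9 of 10 donors. Nmb overlaps Sec11a on the same strand, so its value is uncertain.

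The most abundant of the other precursors were Cck, the cholecystokinin gene, at 18.4 RPKM on average, Penk at 11.1 and Uts2d, a urotensin precursor, at 7.64. The Cck difference was 0.14 (SE 0.16, adjusted p = 0.613, limma) and the Uts2d difference -0.34 (SE 0.17, adjusted p = 0.234). The median of the 7 was 0.14. Avp, Galp, Npvf, Prlh and Ucn3 had 0 reads in every library.

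Most enzymes that cut and amidate precursors and most proteins of secretory granules were not called, as held for most tested genes (6.73% called). Of 23 such genes 21 were tested, and 2 passed, both higher in sacral DRG: Pcsk5, a proprotein convertase (0.40 ± 0.08 SE, adjusted p = 0.00839, limma), and Pam, the amidating enzyme (0.33 ± 0.10 SE, adjusted p = 0.0492, limma). Pam overlaps the pseudogene Gm3531 on the same strand. Pcsk5 and Pam each rose in 10 of 10 donors, where 2.85% of tested genes had a single direction in all 10. The most abundant were Cpe, carboxypeptidase E, at 82.5 RPKM (-0.26 ± 0.18 SE, adjusted p = 0.390), Cadps, a granule release factor, at 44.3 (-0.33 ± 0.15, 0.180), and Scg2, a granin, at 44.1 (0.52 ± 0.20, 0.118), and the list median was -0.14.

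Of 33 receptor and accessory genes for the members' peptides 31 were in the table and 12 were tested. Of these 12, 2 passed, against 6.73% of all tested genes, and both were higher in sacral DRG. Sstr4, a somatostatin receptor, was 1.63-fold higher (0.71 ± 0.14 SE, adjusted p = 0.00705, limma), at 2.36 to 5.83 RPKM in lumbar and 4.85 to 11.02 RPKM in sacral libraries. Adcyap1r1, the PACAP receptor, was 1.94-fold higher (0.96 ± 0.19 SE, adjusted p = 0.00590, limma), at 0.370 to 1.40 RPKM in lumbar and 0.871 to 2.83 RPKM in sacral libraries. Both rose in 10 of 10 donors, and their peptides' genes, Sst and Adcyap1, gave differences of 1.41 and 0.14.

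The most abundant receptor genes were not called: Ramp2, an accessory protein of CGRP family receptors that overlaps Vps25, at 13.9 RPKM (-0.03 ± 0.09 SE, adjusted p = 0.863, limma), Crcp, a CGRP receptor component, at 11.6 (-0.25 ± 0.11, 0.170), and Sort1, a neurotensin-binding sorting receptor, at 9.02 (-0.19 ± 0.15, 0.426). The list median was -0.04. The lists were chosen with earlier results of these data known, so their counts are a description.

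**Figure D5:**
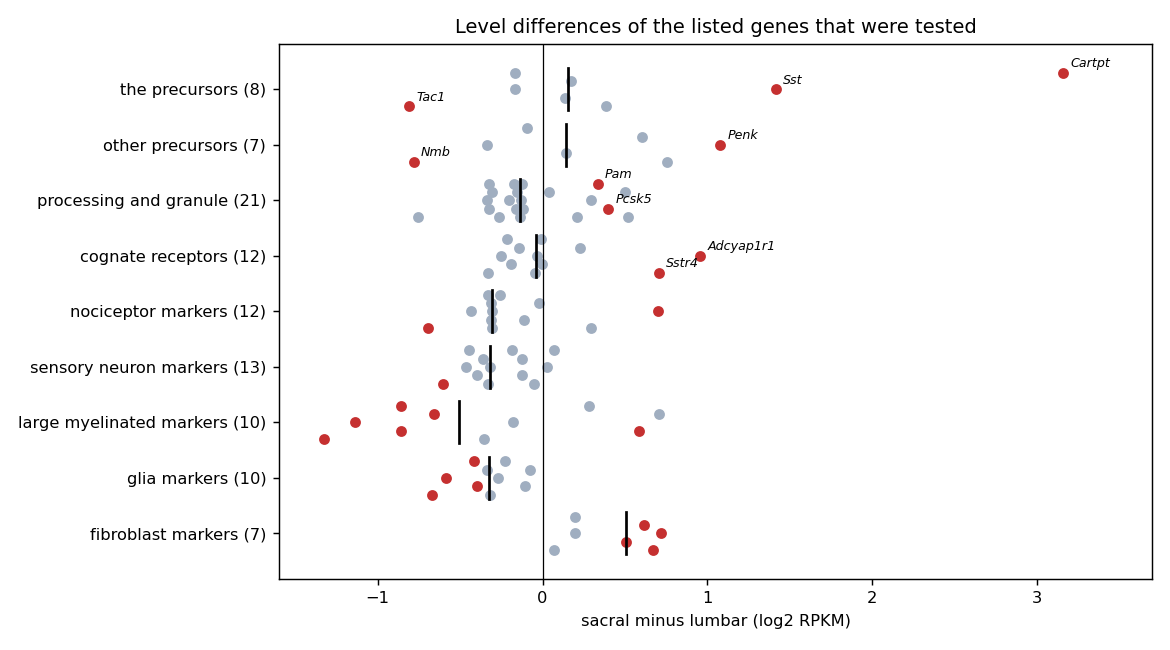
Sacral minus lumbar difference (x axis, log2 RPKM) of each tested gene of the precursor, processing, receptor and marker lists (y axis, number tested in brackets), with red points at an adjusted p of at most 0.05 and black bars at the list median. Cartpt lies farthest from 0 at 3.16, and the fibroblast list has the highest median (0.51) of the 9 lists drawn. The cartilage list, with 3 genes tested and a median of 0.80, is not drawn.

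Markers of autonomic neurons, which can carry CART and neuropeptide Y, were low at both levels. Of 12 listed, 11 were in the table and 1, Slc18a2, was tested, with a difference of 0.08 (adjusted p = 0.597, limma). The list summed to 3.65 to 5.21 RPKM in lumbar and 3.94 to 6.16 RPKM in sacral libraries, of which Slc18a2 gave 3.62 on average, while Dbh averaged 0.104 RPKM over the 20 libraries. Of the remaining marker lists, 2 of 4 tested endothelial genes and 1 of 3 cartilage genes were called higher, and none of 2 spinal cord, 4 macrophage, 6 muscle and 6 erythroid genes was called.

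The genes whose pattern over the 20 libraries was most like that of Cartpt were Gm20440 (Pearson r = 0.927, Spearman rho = 0.884), Hoxd11 (0.918, 0.868), Hoxc11 (0.909, 0.913), Hoxd10 (0.901, 0.844) and Chrna3, a nicotinic receptor subunit (0.857, 0.883). Hox genes mark position along the body axis. Gm20440 overlaps Hoxd10 and Hoxd11 on the same strand, so the 3 values are uncertain. All 5 were called higher in sacral DRG, from 1.30 for Chrna3 to 2.84 for Hoxc11. They were picked for likeness to Cartpt, which separates the levels, so this direction follows from the choice. In donor F8, which had the smallest Cartpt difference, Chrna3 rose by 0.876, the 2nd smallest rise of 10, where the smallest was 0.868. In that donor Hoxd10 rose by 1.32, Hoxd11 by 1.66 and Hoxc11 by 2.64, the 3rd, 3rd and 5th smallest rise.

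For Tac1 the most alike genes were Serpina3g (Pearson r = 0.901, Spearman rho = 0.875) and Gabrg1, a GABA-A receptor subunit (0.900, 0.868). Both were called lower in sacral DRG (-1.41 and -1.74), a direction that again follows from the choice by likeness. For Gal the most alike genes were Fxyd6 (0.927, 0.868) and Ndn (0.914, 0.878), and for Adcyap1 9330132A10Rik (0.969, 0.916) and Nrsn1 (0.950, 0.877). None of these 4 was called between levels. For Calca they were Ypel5 (0.852, 0.756) and Tmem126b (0.847, 0.818), for Calcb Cbr1 (0.879, 0.869) and Sncg (0.850, 0.756), and for Nts Ipp (0.742, 0.546) and Ikbip (0.728, 0.805).

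Among the members themselves, the closest pair over the 20 libraries was Gal and Adcyap1 (Pearson r = 0.791, Spearman rho = 0.726), and the most opposed was Cartpt and Tac1 (-0.659, -0.647). These correlations are descriptions over 20 libraries that share level, donor and the mitochondrial rRNA share.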

How the data were processed

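RNA sequencing of whole DRG was deposited as 1 table for 20 libraries. The authors amplified total RNA (NuGEN Ovation), made Nextera XT libraries, sequenced them on a HiSeq instrument, aligned reads to mm9 with Subread (the submitters' notes also name GRCh37.p7), kept unique reads, counted them per Ensembl gene with featureCounts and applied TMM scaling (edgeR 3.12.1) and voom (limma 3.26.9). The values the authors deposited are log2 RPKM. Strand use in counting is not given in the sources used here, so overlapping genes are uncertain. No member overlaps another gene.

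With GENCODE M1 exon lengths, 98.27% of values were within 0.05 of whole reads. A blank was set to 0.5 reads. Groups came from sample titles. Differences were tested with limma 3.58.1 (R 4.3.3, statmod 1.5.0) on the log2 values of all 20 libraries: 4 group means, donor as a block (correlation 0.342), eBayes with a trend, Benjamini-Hochberg adjustment over 14526 genes and a threshold of 0.05. The slope model added the mitochondrial rRNA share. The fit was tested on simulated data. Same-numbered libraries come from the same embryo, and this gives the pairing. The deviations of a donor's 2 libraries from their group means correlated at -0.17 to 0.68, over 0.1 in 6 of 10 donors. They were highest in M5 (0.68) and F7 (0.65), the donors of highest mitochondrial rRNA share. Within a sex, 4 of 10 lumbar libraries correlated best with their own donor's sacral library. The block correlation was 0.088 with the share as a covariate and 0.093 without M5 and F7. No 2 replicates agreed within sampling noise (chi-square per degree of freedom of 16.9 or more). P-values between levels rest on how the difference within an embryo varies over embryos, with 1 block correlation shared by all genes. Those between sexes rest on the spread between embryos. A count of 0 was read as allowing 3 reads (95%). The libraries were amplified without molecular identifiers, so limits cover counting error only.

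Genes named are all members, called genes and the 3 most abundant of the precursor, processing and receptor lists, the genes most correlated with each tested member, and tissue markers. Other lists were markers of nociceptors, large myelinated and autonomic neurons, spinal cord, glia, macrophages, endothelium, fibroblasts, cartilage, muscle and erythroid cells. The members and lists were chosen with earlier results of these data known. Alternatives covered filters, blanks, scaling, the block, weights, the rRNA share, voom and each donor left out. Protein sequences were not used here, and Calcb had no promoter entry.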

Additional observations from a re-analysis of the deposited data

Results flagged for a closer look

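Of 50 sets of member values (4 groups of 5 libraries and 10 donor differences for each gene) 6 held 1 value far from the others by Dixon's criterion, which chance meets in about 1 of 20 sets. The sacral library of M3 was the highest for Tac1 among sacral males (log2 RPKM 5.65). Lumbar M5, the library with the largest mitochondrial rRNA share, was the lowest among lumbar males for Gal (3.62) and for Nts (-2.27). Lumbar F8, the deepest library, was the highest among lumbar females for Nts (0.98). Donor F7 had the lowest sacral minus lumbar difference of Adcyap1 (-0.71). Sacral F3 was the highest for Nppb among sacral females (-3.34), with 3 reads where the other 4 libraries had 0.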

How the results depend on the processing

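Cartpt and Tac1 passed the threshold under each of 23 alternatives, with differences of 2.44 to 3.40 and -0.87 to -0.67. Sst kept its direction in 23 and passed in 14 (adjusted p 0.00263 to 0.148, limma). The number of members called between levels was 3, and 2 without the donor block, when Sst was lost, with no filter, without M5 and F7 together, and without M5, M8, F3, F7, F9 or F10 (2 to 3 over the 10 fits that leave out a donor). The pairing changed no other call of a member between levels or sexes, and without the block the genes called in all fell from 977 to 154. No member was called between sexes or in the interaction under any alternative run. The number with a slope on the mitochondrial rRNA share was 2, was 3 without the block and with a filter at 2 RPKM (Calcb added), and ran from 2 to 4 over the fits that leave out a donor, with 4 (Cartpt and Calcb added) without F9. Gal and Adcyap1 passed in all 19 alternatives of the slope. The small Calca difference changed sign under quantile normalization (0.0025), and that of Nts without M5 and F7 (-0.0025), an alternative chosen after seeing the data, and the cause was not tested. Without M5 and F7, 265 genes were called between levels, with F8 left out 1606, and with sample weights 2997. Depth limits Sst, Nts, Npy and Nppb, which had under 100 reads in each library.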
